A study of Mus musculus with 29 samples.

Results

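The RNA of whole mouse lung was compared between mice without Klf15 and wild-type mice 4 h after saline, the treatment that served as control for dexamethasone. These are 7 of the study's 29 arrays, chosen by their titles: 3 knockout arrays and 4 wild-type arrays. The mice were C57BL/6 and 6 to 8 weeks old, and all of those compared here had received saline and no dexamethasone. The knockout is labelled Klf15-/-, so the gene is lacking in the animal and not in 1 cell type alone; the labels do not say how the allele was made. The labels speak of biological replicates, and each array is 1 lung sample. The p-values measure the spread between samples within groups, estimated over all 29 arrays. The other 22 arrays cover saline for 8 h and dexamethasone, a synthetic glucocorticoid, at 2.5 mg/kg for 4 and 8 h, in both genotypes. By the series title, the study asks how the glucocorticoid receptor and Klf15 act in a feed-forward circuit, and the saline arrays show the genotype difference without the added hormone.

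Klf15 is a zinc-finger transcription factor of the Krüppel-like family, whose members bind GC-rich and CACCC sequences. Its gene is a direct target of the glucocorticoid receptor. In liver, muscle and heart Klf15 is known for driving the enzymes that break down amino acids, among them those of the branched-chain amino acids, and for its part in glucose and lipid metabolism. In the lung it is studied as a mediator of glucocorticoid action in airway epithelium and smooth muscle.

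The level of a probe is given here as the log2 of its processed signal relative to the 75th percentile of the same array, so that 0 is the 75th percentile. A change is the difference of levels, knockout minus wild type, in a limma model over all 29 arrays with 8 group means. A gene is called when the Benjamini-Hochberg adjusted p of its brightest probe is under 0.05. In bulk lung RNA, fewer cells of a type and less RNA per cell cannot be told apart. Wild-type values are listed in the order of replicates 33, 34, 35 and 36, and knockout values in the order of replicates 41, 43 and 44.

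The arrays differed between the genotypes in ways that touch every gene. Between 77.3% and 81.1% of spots were well above background on the wild-type arrays and between 82.4% and 87.2% on the knockout arrays. The signal at the 75th percentile was 2125 to 2718 in wild type and 2829 to 3273 in the knockout. On the knockout arrays the bright probes were lower and the dim probes higher. In 2632 genes with 2 probes over 2 log2 units apart, the mean log2 ratio of the bright to the dim probe of the same gene, centred on the mean of all arrays, was 0.071, -0.008, 0.067 and 0.167 in wild type and -0.222, -0.37 and -0.234 in the knockout. The genotypes did not overlap in any of these 3 measures, with a difference of -0.349 in the ratio (two-sided exact permutation test, p = 0.0571, the smallest that 3 against 4 arrays allow, so that p under 0.05 cannot be reached). The ratio also differed between the genotypes by -0.16 under saline at 8 h, and by 0 and 0.06 under dexamethasone at 4 and 8 h. No slide held arrays of both groups compared, so slide and genotype cannot be told apart within these 7 arrays.

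**Figure D1:**
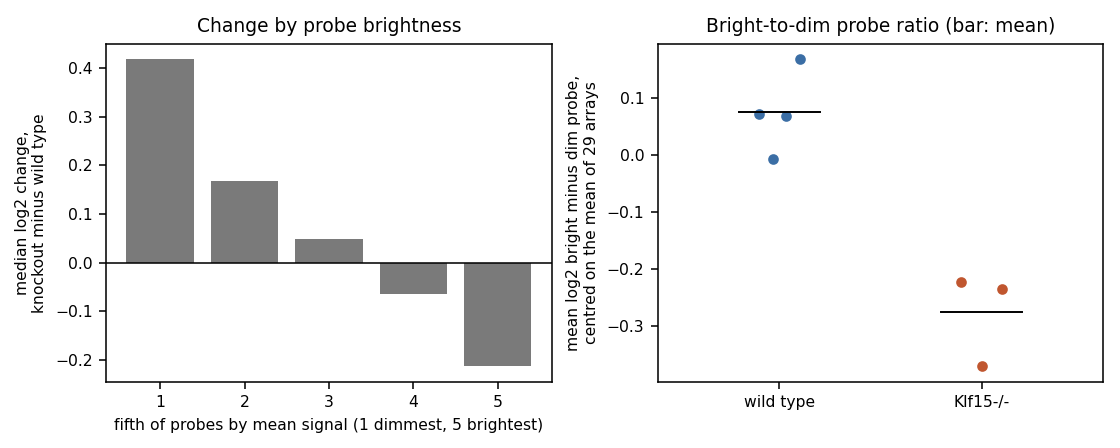
The left panel plots the median log2 change (knockout minus wild type, saline 4 h) in 5 bins of the measured probes by mean signal, and the right panel the bright-to-dim probe ratio of each of the 7 arrays with the group mean as a bar. The median change runs from 0.418 in the dimmest bin to -0.213 in the brightest, and all 3 knockout arrays lie below the 4 wild-type arrays.

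Klf15 itself checked the labels. Its brighter probe read 2, 1.95, 2.57 and 2.48 in wild type and -0.87, -0.88 and -0.27 in the knockout. The knockout level lay below that of every wild-type array by more than 2 log2 units, and the probe remained well above background on all 3 knockout arrays. The change was -2.92 (SE 0.225, limma adjusted p = 2.69e-08), and the second probe gave -2.58. The labels do not say which stretch of Klf15 was removed, so whether the probes lie inside it is unknown here.

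Because the shift with brightness reaches most genes, the other probes of a gene are given or described wherever it has several. A gene named without a word on its probes has 1 measured probe, and its change has no check by a second. Of 15351 genes tested, 3594 were called (23.4%), 1014 higher (6.61%) and 2580 lower (16.8%) in the knockout, with a median change of -0.01 over all genes. Only 101 rises and 31 falls reached 2-fold on the brightest probe. The rises include genes well above background on no wild-type array, which have no measured size. Of the 2-fold calls 15 had 2 or more measured probes, and in 3 agreeing genes every probe reached 2-fold. The split moved with the scaling: 28.2% of the calls were higher here, against 36.1% after quantile normalization, 40.2% after cyclic loess and 7.89% (334 higher, 3900 lower) after scaling to the median, which moved the median of all genes to -0.18. Under median scaling the probes of 14 rises and 226 falls agreed. Of the 1497 called genes with 2 or more measured probes, 744 had probes of 1 sign. Among all 5337 genes with 2 or more measured probes, called or not, 181 had probes called in opposite directions. In 195 of 5337 genes with 2 or more measured probes, every probe was called in the same direction (3.65%): 92 rose (1.72%) and 103 fell (1.93%). The balance turned with slide as a block and with a fit of the 7 compared arrays alone. A fixed block gave 185 agreeing rises and 78 falls, sharing 87 of the 195 genes, and a random block gave 158 and 100. The fit of the 7 arrays, which takes the spread from them alone, gave 88 and 56, sharing 95 of the 195. With the bright-to-dim ratio in the model the probes of 2 genes agreed, both falls. Among the 195 genes whose probes agree, the groups of arrays overlapped on no probe in 69 of the rises and 87 of the falls, beside 14.9% of all 5337 genes. The 195 were chosen by their calls on the same arrays, so the lack of overlap largely follows from the choice and adds no support. Without knockout replicate 43 the probes of 75 genes agreed, without knockout replicate 44 those of 95, without knockout replicate 41 those of 111 and without wild-type replicate 36 those of 79.

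Genes with opposite probes show what the agreement guards against. In Ppp1r9a, a neuronal scaffold protein, the brightest probe changed by -0.40 and the other 2 called probes by 0.79 and 1.68. Virma, a subunit of the RNA methylation complex, changed by -0.24 and 0.47 on its 2 called probes. Nr3c1, the glucocorticoid receptor, belongs to the same class: its brightest probe fell by 0.41 and the other 3 rose by 0.33, 0.39 and 0.84. The data therefore give no direction for Nr3c1 in the knockout.

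3 genes stood out in that all their probes agreed and the genotype difference was called with the same sign in the other 3 comparisons as well, which use other arrays but share slides and the estimate of spread: Klf15, Sfxn2 and Bckdhb. The promoters of Sfxn2 and Bckdhb are shown together with those of Aldh6a1 and Gnmt, the most strongly lowered single-probe genes of the branched-chain and of the other amino acid pathways. Each is the 250 bases before the gene's start in RefSeq's GRCm38.p6 annotation, 5′ to 3′ on the gene's strand, with CACCC and its complement GGGTG in capitals.
Bckdhb (chr9:83924887-83925136, plus strand): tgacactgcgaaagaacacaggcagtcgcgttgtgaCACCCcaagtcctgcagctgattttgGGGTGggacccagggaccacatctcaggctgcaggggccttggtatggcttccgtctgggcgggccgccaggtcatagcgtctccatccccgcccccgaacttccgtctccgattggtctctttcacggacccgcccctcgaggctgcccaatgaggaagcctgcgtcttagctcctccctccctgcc
Sfxn2 (chr19:46573115-46573364, plus strand): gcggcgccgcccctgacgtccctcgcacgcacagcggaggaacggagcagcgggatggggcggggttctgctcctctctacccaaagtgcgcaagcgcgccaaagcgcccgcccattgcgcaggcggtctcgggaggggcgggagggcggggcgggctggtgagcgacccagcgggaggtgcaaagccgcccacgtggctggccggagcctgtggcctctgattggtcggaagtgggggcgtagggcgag
Aldh6a1 (chr12:84451025-84451274, minus strand): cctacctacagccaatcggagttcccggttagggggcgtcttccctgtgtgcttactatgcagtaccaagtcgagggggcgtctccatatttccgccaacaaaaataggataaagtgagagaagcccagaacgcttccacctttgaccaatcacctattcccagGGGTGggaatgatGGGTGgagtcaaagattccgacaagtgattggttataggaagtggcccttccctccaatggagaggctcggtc
Gnmt (chr17:46729166-46729415, minus strand): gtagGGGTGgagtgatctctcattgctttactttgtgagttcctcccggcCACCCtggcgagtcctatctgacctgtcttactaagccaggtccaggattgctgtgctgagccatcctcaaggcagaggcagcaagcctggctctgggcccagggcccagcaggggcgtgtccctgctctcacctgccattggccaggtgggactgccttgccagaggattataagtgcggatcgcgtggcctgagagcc

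Bckdhb, Aldh6a1 and Gnmt hold 2 CACCC matches each in this window, and Sfxn2 holds none but 7 matches of GGGCGG, the GC-box letters, on either strand. Of the 12247 tested genes with a promoter in the reference table, 56.3% hold CACCC on at least 1 strand. Among the genes called lower in all 4 genotype comparisons, 26 of the 36 with a promoter hold it (72.2%), among the falling genes whose probes agree 45 of 82 (54.9%), and among the rising ones 50 of 75 (66.7%). The mean GC content of these promoters was 60.6%, 62.1% and 62.5%, against 57.9% over all tested genes, so base composition differs along with the motif counts. The matches are letters in a window and were not tested as binding sites.

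Sfxn2 encodes a sideroflexin, a carrier of the inner mitochondrial membrane. Its brighter probe read -0.56, -0.39, -0.83 and -0.61 in wild type and -1.43, -1.76 and -1.63 in the knockout. The highest knockout array lay below the lowest wild-type array on both probes. The changes were -1.01 (SE 0.105, limma adjusted p = 2.25e-06) and -1.02.

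Bckdhb encodes the beta subunit of the E1 component of the branched-chain ketoacid dehydrogenase, the committed step of leucine, isoleucine and valine breakdown. Its brighter probe read 0.71, 0.76, 0.81 and 0.79 in wild type and 0.32, 0.20 and 0.23 in the knockout, with no overlap. The second probe, at a like level, read 0.85, 0.88, 0.79 and 0.86 against 0.35, 0.03 and 0.12. The changes were -0.52 (SE 0.0573, limma adjusted p = 5.81e-06) and -0.68.

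**Figure D2:**
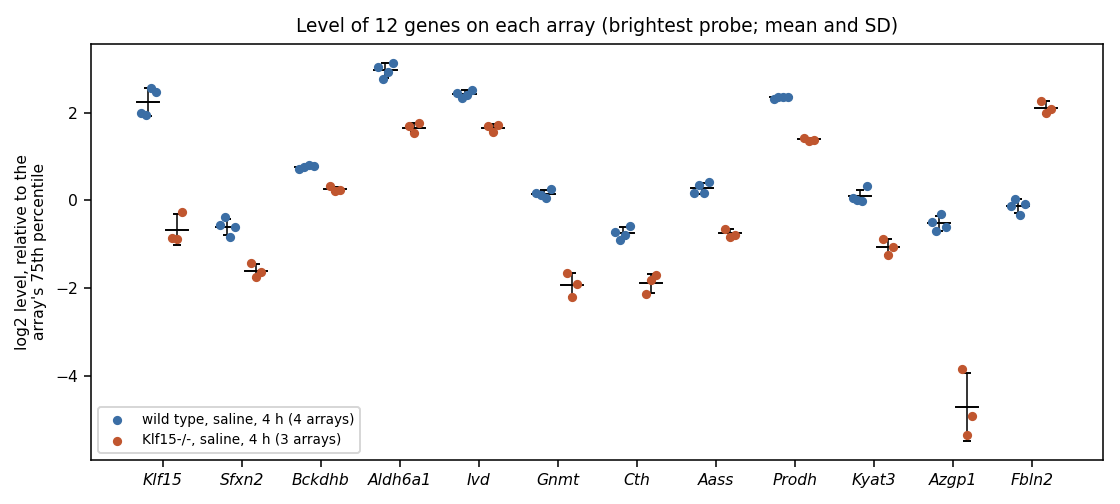
The plot gives the log2 level of 12 genes (brightest probe, relative to the array's 75th percentile) on each of the 4 wild-type and 3 knockout arrays, with the group mean and SD. All 12 genes separate the genotypes without overlap, 11 of them lower in the knockout and Fbln2 higher.

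Among the agreeing genes whose groups overlapped on no probe, the 12 falls and 12 rises with the largest change on their weaker probe are described here. After Klf15 and Sfxn2 the falls were in genes of unlike function. Myh7, a slow and cardiac myosin heavy chain, changed by -0.90 and -0.89 on its 2 probes. It was the only called one of 17 heart muscle markers, whose median change was 0.68. Sun2, a protein of the nuclear envelope, fell by 0.63 and 0.65. Appbp2, which binds the amyloid precursor protein, fell by 0.56 on both probes. Cotl1, an actin-binding protein, fell by 0.66 and 0.54, and its direction was not kept with the bright-to-dim ratio in the model (0.04).

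Rell1, a membrane protein related to the TNF receptor family, fell by 0.53 and 0.70. Il11ra1, the receptor of interleukin 11, fell by 0.54 and 0.52, and its probes may also catch its near-identical neighbour. Kansl1l fell by 0.68 and 0.51. Bmper, a secreted regulator of BMP signalling, fell by 0.77 and 0.51. Supt5, a subunit of the transcription elongation factor DSIF, fell by 0.59 and 0.51. In each of these genes the 3 knockout arrays lay below the 4 wild-type arrays on both probes.

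On the rising side, Etv5, an ETS transcription factor of alveolar type 2 cells, rose by 0.77 and 0.57. Its brighter probe read -1.42, -1.65, -1.61 and -1.77 in wild type and -0.80, -0.80 and -0.93 in the knockout, without overlap. Igfbp4, which binds insulin-like growth factors, rose by 0.83 and 0.66. Its brighter probe read 0.28, -0.04, 0.40 and 0.03 in wild type and 1, 0.99 and 0.99 in the knockout. Rfx5, a regulator of MHC class II genes, rose by 0.70 and 0.72, while none of the 11 MHC class II genes tested was called.

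Stxbp4, a syntaxin-binding protein of insulin-regulated vesicle traffic, rose by 0.86 on both probes. Acat3, a thiolase with a close paralogue in the mouse, rose by 0.80 and 0.64. Prom1, a membrane glycoprotein, rose by 0.59 and 0.86, and Kank4 by 0.57 and 0.93. Ctnnd1, the p120 catenin of cell junctions, rose by 0.55 and 0.74, and Tmem209 by 0.65 and 0.62. Bbof1, a basal body protein of ciliated cells, rose by 0.72 and 2.19, and none of the 14 ciliated cell markers was called.

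Col2a1, the collagen of cartilage, rose by 0.85 and 2.99. Hsf2, a heat shock transcription factor, rose by 0.83 and 1.10 from low levels, and gave -0.41 with the bright-to-dim ratio in the model. Of the 12 rises only Stxbp4, Igfbp4, Acat3 and Prom1 had probes that agreed under quantile normalization and cyclic loess as well; of the 12 falls, all but Cotl1 and Supt5 did. The brighter probes of Tmem209, Kank4, Bbof1 and Ctnnd1 were no longer called under 13, 11, 10 and 9 of 23 alternatives. Igfbp4 and Ctnnd1 aside, the brighter probes of these rises lay below the 75th percentile on all 7 arrays. Klf15, Sfxn2 and Kansl1l aside, those of the named falls lay above it on all 7.

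**Figure D3:**
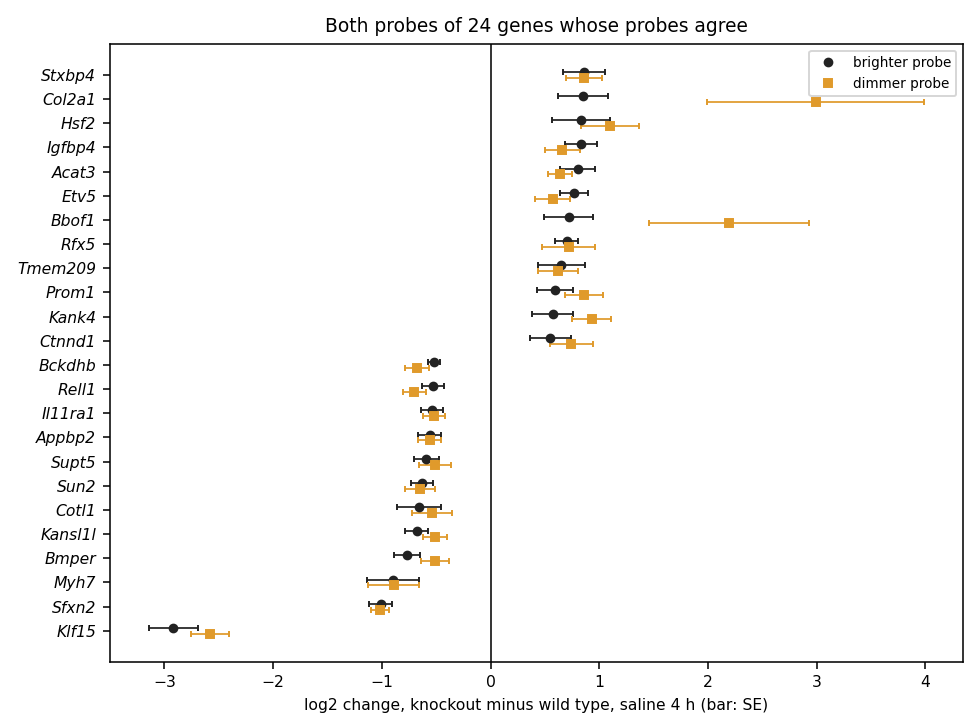
The plot gives the log2 change (knockout minus wild type, saline 4 h) of both probes of the 12 named rises and 12 named falls, with the SE as a bar. Both probes of each gene lie on the same side of 0, and Col2a1 and Bbof1 have the largest distance between their probes.

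Among the genes of amino acid breakdown more fell than rose, and most were not called. Of 25 tested genes of branched-chain amino acid catabolism, 10 fell and 1 rose, with a median change of -0.18; of 44 other genes of amino acid catabolism, 12 fell and 1 rose, with a median of -0.15. Over all genes 16.8% fell and 6.61% rose, with a median of -0.01. The summed level of the branched-chain genes was 65.4 to 69.4 on the knockout arrays and 89.2 to 98.9 on the wild-type arrays, in multiples of the 75th percentile; that of all genes was 38100 to 39500 against 42800 to 45800. Most of these enzymes have 1 probe, so that probe agreement could be asked of few. With the bright-to-dim ratio in the model, 7 of the 22 falls were still called: Gnmt, Cbs, Aldh6a1, Cth, Aass, Bckdhb and Ivd.

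In the branched-chain pathway the fall was largest for Aldh6a1, the methylmalonate semialdehyde dehydrogenase of valine breakdown. It read 3.04, 2.75, 2.92 and 3.13 in wild type and 1.69, 1.53 and 1.75 in the knockout. The groups did not overlap, with a change of -1.30 (SE 0.105, limma adjusted p = 5.13e-08). Ivd, the isovaleryl-CoA dehydrogenase of leucine breakdown, fell by 0.77 on its brighter probe, and its second probe gave -0.36 with an adjusted p of 0.0922 in limma.

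Further along the same routes, Mccc1, a subunit of methylcrotonoyl-CoA carboxylase, fell by 0.60 on its brighter probe. Hibadh, of valine breakdown, fell by 0.56, and Echs1, an enoyl-CoA hydratase shared with fatty acid oxidation, by 0.42. Bckdha, the alpha subunit that pairs with Bckdhb, fell by 0.48 on its brighter probe. The second probes of Mccc1 and Bckdha lay below 0 but were not called. Acad8, the isobutyryl-CoA dehydrogenase of valine breakdown, rose by 0.49. The transaminases Bcat1 and Bcat2 and the kinase Bckdk, which restrains the dehydrogenase, were not called, with changes of 1.52 (SE 0.924), -0.03 and 0.14. The value of Bcat2 is that of the brightest of its 3 probes, which did not share 1 sign.

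Outside that pathway, methionine and cysteine metabolism gave the largest falls. Gnmt, the glycine N-methyltransferase that uses up S-adenosylmethionine, read 0.18, 0.12, 0.05 and 0.27 in wild type and -1.65, -2.20 and -1.91 in the knockout. Its change of -2.07 (SE 0.111, limma adjusted p = 4.28e-11) had the lowest p of all genes, and the groups lay far apart. Cth, the cystathionine gamma-lyase, read -0.72, -0.90, -0.80 and -0.58 against -2.12, -1.82 and -1.71, a fall of 1.13. Cbs, the cystathionine beta-synthase that acts just before it, read -2.87, -3.12, -3.14 and -3.02 against -4.70, -4.27 and -5.02, a fall of 1.63. Ahcy, Mat1a, Cdo1 and Bhmt, of the same routes, were not called, with changes of 0.15, -0.30, -0.15 and 1.25 (SE 0.628).

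Single enzymes of other routes fell too. Aass, the bifunctional enzyme that opens lysine breakdown, read 0.17, 0.35, 0.18 and 0.41 in wild type and -0.64, -0.83 and -0.79 in the knockout, a fall of 1.03 (SE 0.10, limma adjusted p = 1.03e-06). Prodh, the proline dehydrogenase, read 2.31, 2.36, 2.36 and 2.36 against 1.42, 1.36 and 1.38, a fall of 0.96 with the groups tightly clustered. Abat, the transaminase of GABA, fell by 0.97, and Kyat3, an aminotransferase of the kynurenine pathway, by 1.15. Glud1, the glutamate dehydrogenase, fell by 0.63 and Gcat, of threonine breakdown, by 0.70. Aldh18a1, of proline synthesis, rose by 0.53. The list was not limited to breakdown among its falls either. Asns and Mat2a, of asparagine and S-adenosylmethionine synthesis, fell by 0.38 and 0.42. Aldh4a1 fell by 0.34 on its brighter probe, and its 2 probes did not share 1 sign.

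**Figure D4:**
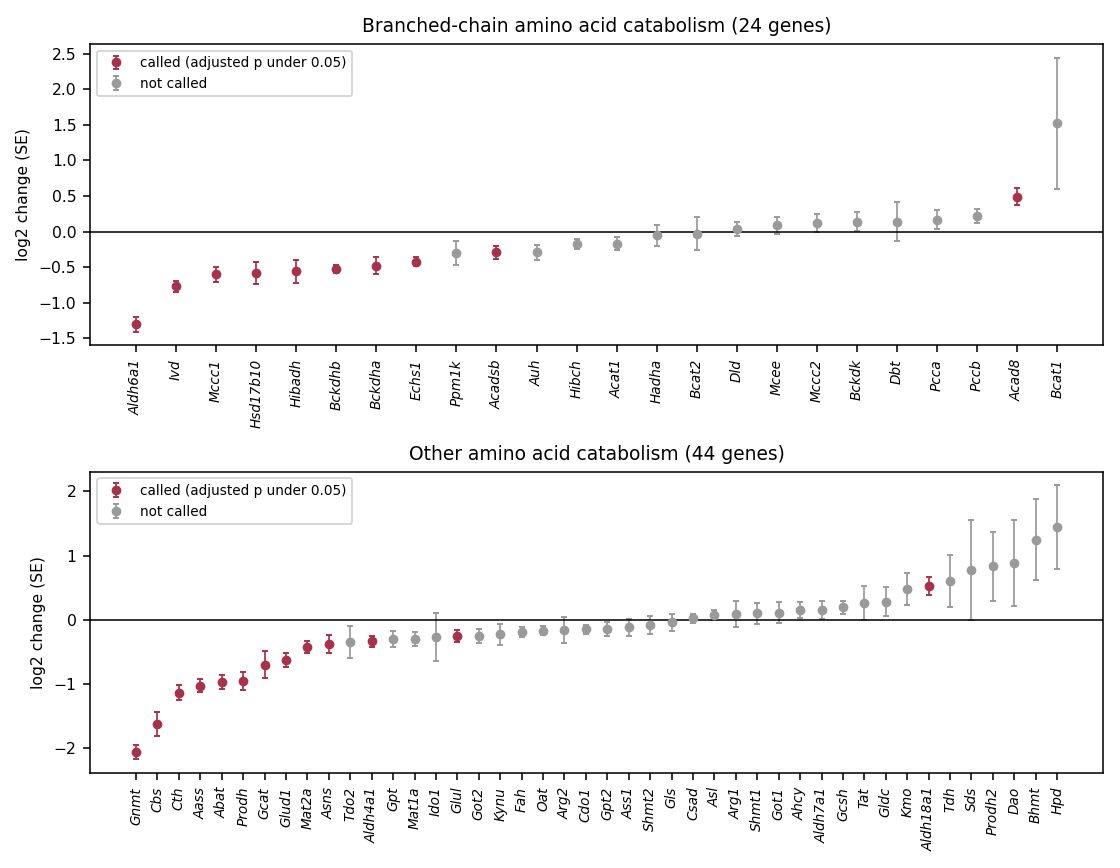
The panels give the log2 change with its SE (knockout minus wild type, saline 4 h) of the tested genes of branched-chain and of other amino acid catabolism, ordered by change; 1 of the 25 branched-chain genes is not drawn. Called genes are red, and most of them lie below 0 in both panels; 1 called gene rose in each.

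The genotype difference could be set beside that of the other arrays. Called with 1 sign in all 4 genotype comparisons were 49 genes, 46 lower and 3 higher, of which 11 belong to the amino acid lists and 38 have 1 measured probe. All genes of this class that are named here were chosen after their values were seen. In the other comparisons 13.3% of genes were called under saline at 8 h, 0.938% under dexamethasone at 4 h and 5.19% under dexamethasone at 8 h. With the bright-to-dim ratio in the model 19 genes were called in the saline 4 h comparison, 17 of them from these 49.

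Several other genes of the 49 fell. Azgp1, the zinc-alpha-2-glycoprotein, a secreted factor tied to lipid mobilisation, read -0.49, -0.69, -0.31 and -0.62 in wild type and -3.85, -5.35 and -4.90 in the knockout. Its change was -4.18 (SE 0.428, limma adjusted p = 1.83e-06), with -4.26, -4.31 and -4.80 under saline at 8 h and dexamethasone at 4 and 8 h. All 3 knockout arrays lay more than 3 log2 units below the wild-type arrays at 4 h. Slc13a4, a sulfate transporter, fell by 4.03, with 1 of the 3 knockout arrays missing a value, and Lrtm2, a leucine-rich repeat membrane protein, by 2.74. Adhfe1, a mitochondrial hydroxyacid-oxoacid transhydrogenase, fell by 3.96 on its brighter probe and was well above background on 2 of the 3 knockout arrays; its second probe moved the same way but was not called. Fgfbp1, a carrier of fibroblast growth factors, fell by 1.34.

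Regulators and organelle genes of lipid metabolism were also among the 49. Ppara, the nuclear receptor that drives fatty acid oxidation, changed by -0.53 under saline at 4 h, and by -0.74, -0.98 and -0.46 in the other 3 comparisons. Mlxipl, the carbohydrate-responsive factor ChREBP, fell by 0.63, Acot1, an acyl-CoA thioesterase with close paralogues, by 1.06, and Pxmp2, a channel of the peroxisomal membrane, by 0.56. Gstz1, an isomerase of tyrosine breakdown, fell by 0.48.

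The 3 genes higher in all 4 comparisons were Fbln2, Adcyap1r1 and Mindy4. Fbln2, an extracellular matrix protein, read -0.13, 0.04, -0.33 and -0.09 in wild type and 2.27, 1.98 and 2.09 in the knockout. It rose by 2.24 (SE 0.193, limma adjusted p = 1.21e-07), and by 2.07, 2.22 and 2.60 in the other comparisons. Adcyap1r1, the receptor of the neuropeptide PACAP, rose by 1.99 on its brighter probe, the other moving the same way without a call, and Mindy4, a deubiquitinase, by 1.29.

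**Figure D5:**
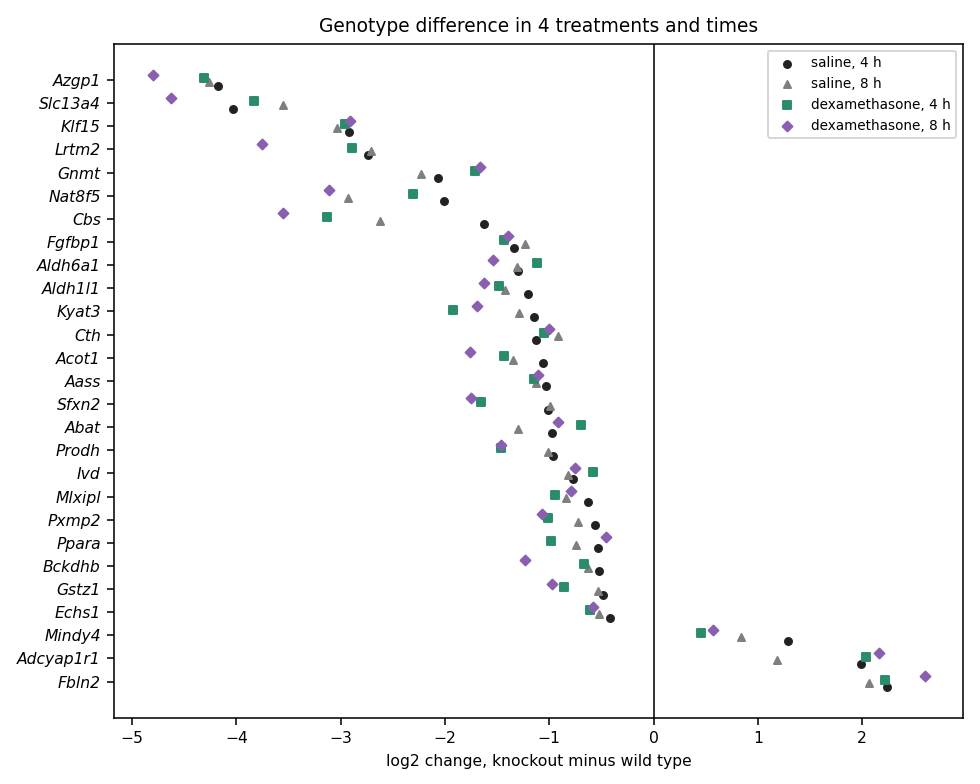
Each row is a gene called with 1 sign in all 4 genotype comparisons, and each mark the log2 change (knockout minus wild type) in 1 of them. The 24 genes above Mindy4 are lower and the lowest 3 rows higher in the knockout in every comparison, and Cbs, Kyat3 and Sfxn2 fell further under dexamethasone than under saline at 4 h.

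Fbln2 is also a neighbour of Klf15 on the chromosome, within 10 Mb, as are Nat8f5 and Aldh1l1. Nat8f5, an N-acetyltransferase of a family with near-identical members, fell by 2.01. Aldh1l1, a folate enzyme, read 1.24, 1.10, 1.14 and 1.21 in wild type and 0.26, -0.42 and 0.09 in the knockout, a fall of 1.20. Of 147 genes tested in that window 27.9% were called, against 23.4% of all genes, 9 higher and 32 lower, and the probes of 3 agreed. Dusp11, a phosphatase of RNA, fell by 0.72, 0.37 and 0.42 on 3 of its 4 probes, the other giving -0.21, and Gmcl1 fell by 0.54 on its only probe. Whether DNA beside the deleted gene differs in sequence between the genotypes was not tested.

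Some genes with 1 probe were well above background on all 3 knockout arrays and on no wild-type array, so they have bounds only, with no rank among the rises. They passed the filter through the knockout group alone, and no test is read from them. Ccl22, a chemokine for T cells, was at least 4.2-fold higher in the knockout, Hacl1, of peroxisomal alpha-oxidation, at least 3.87-fold, Nr2f1, a nuclear receptor, at least 3.39-fold, and Acsbg2, an acyl-CoA synthetase, at least 3.12-fold. None of the 4 was called in another genotype comparison.

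Among the Krüppel-like factors, 5 of 16 fell and none rose, with a median of -0.27, where 16.8% of all genes fell and 6.61% rose. The 5 include Klf15, whose fall follows from the knockout. Besides Klf15, both probes of Klf6 fell, by 0.60 and 0.46. The brighter one read 4.17, 4.31, 4.22 and 4.31 in wild type and 3.66, 3.62 and 3.69 in the knockout. Klf13 fell by 0.57 and Klf4 by 0.42, on 1 probe each.

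Of 36 glucocorticoid-induced genes, 2 rose and 9 fell, with a median of -0.15, beside 6.61% and 16.8% of all genes. Tnfaip3, an inhibitor of NF-kappaB signalling, fell by 0.46, Sult1a1, a sulfotransferase, by 0.41, and Lcn2, an iron-binding defence protein, rose by 0.69. Mt2, a metallothionein whose probe may also catch its near-identical paralogue, read 2.90, 2.84, 2.74 and 2.98 in wild type and 4.18, 3.27 and 3.21 in the knockout. It rose by 0.69 (SE 0.208, limma adjusted p = 0.0205), with knockout replicate 41 far above the other two. Slc39a4, a zinc importer, fell by 0.69. None of the 18 circadian clock genes was called.

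In energy metabolism, 12 of 40 genes of oxidative phosphorylation fell and none rose, with a median of -0.16, beside 16.8% and 6.61% of all genes. These are bright probes: Cox6a1, Cox4i1 and Cox5b, subunits of cytochrome c oxidase, fell by 0.43, 0.44 and 0.45 on 1 probe each, while 37.3% of probes in the brightest of 5 equal bins were called lower. Of 36 genes of fatty acid use 3 rose and 8 fell: the dehydrogenase Acadvl fell by 0.57 and the acyl-CoA synthetase Acsl5 rose by 0.39. Of 31 genes of fatty acid and cholesterol synthesis 5 rose and 5 fell, among them Lss, a sterol cyclase, up by 0.50 on its brighter probe (0.33 and not called on the other), and Dgat2, of triglyceride synthesis, down by 0.44 on its brightest probe (-0.08 and -0.06, not called, on the others). Of 28 glucose genes 4 rose and 7 fell: Pcx, the carboxylase that feeds gluconeogenesis, fell by 0.56, Pygm, a glycogen phosphorylase, rose by 0.73, Pkm rose by 0.42 and Aldoa fell by 0.45 on its brightest probe with both probes in agreement. Of 24 amino acid transporters 2 rose and 3 fell, with Slc1a5 down by 0.53 and Slc38a2 by 0.38 on its brighter probe (-0.09 and not called on the other).

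The immune and stress lists are set against the 6.61% of all genes that rose and the 16.8% that fell. Of 27 interferon-stimulated genes 5 rose and none fell, with a median of 0.16, about as large as the shift that median scaling brings: Ifit1 rose by 0.76, Irf7 by 0.51, Dhx58 by 0.43 and Ifit3 by 0.42. The summed level of the interferon list was 63.9 to 75.4 in the knockout and 64.7 to 75 in wild type, without a rise of the sum. In none of its 10 genes with 2 or more measured probes did the probes agree. Of 45 cytokines, chemokines and adhesion genes 2 rose and 3 fell. Icam1, an adhesion molecule for leukocytes, read 1.6, 1.46, 1.63 and 1.55 in wild type and 2.18, 2.15 and 2.23 in the knockout, a rise of 0.63; Ltb fell by 0.86 and Icam2 by 0.40. Of 19 immediate-early genes 3 fell, with Maff down by 0.45 and Nr4a1 by 1.03, and of 16 heat shock genes 5 fell, with Hspa1a, which has a near-identical copy, down by 0.44 and 0.48 on its probes. Nr4a1 was no longer called under 13 of 23 alternatives. Of 34 collagen and matrix genes 1 rose and 2 fell, and Col18a1 fell by 0.88 and 0.48 on its 2 probes. Of 33 proliferation genes 4 rose and 3 fell. Mcm2 and Cdc45, of DNA replication, both rose by 0.64, from mean wild-type levels of -1.42 and -4.16. Mcm4 and Mcm6, of the same list, changed by -0.35 and -0.41 and were called lower, from brighter mean wild-type levels of 2.33 and 2.67. The part of the shift with brightness in these changes was not tested. Mcm2 also lies within 10 Mb of Klf15.

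Markers of lung cell types were at hand for the tissue label. The alveolar type 2, type 1, endothelial and other lung lists were measured above background on these arrays. Of 13 alveolar type 2 markers 3 rose and none fell, beside 6.61% and 16.8% of all genes: Etv5, Abca3, the lipid transporter of lamellar bodies, by 0.48, and Slc34a2, a phosphate transporter, by 0.41. The second probe of Slc34a2 gave 0.30 and the other probes of Abca3 0.79 and 0.04, none of them called. The surfactant-dominated summed level of that list was nevertheless 364 to 396 on the knockout arrays and 395 to 513 in wild type, so the 3 rises stand beside no rise of the sum. Of 9 type 1 markers Pdpn rose on both probes, by 0.41 and 0.55, and 1 fell. Of 16 endothelial markers 2 rose, Tek by 0.41 and Pecam1 by 0.32, and 3 fell, Robo4 by 0.46 among them.

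T cell markers fell on 9 of 21 genes and rose on none, with a median of -0.46, beside 16.8% and 6.61% of all genes. Their summed level was 8.45 to 10.6 in the knockout and 10.1 to 17 in wild type, so the groups overlapped in the sum. Cd6, Cd5, Cd3d and Lat, proteins of the T cell receptor complex and its signalling, fell by 1.08, 1.01, 0.90 and 0.90, and Thy1 by 0.54 with both probes in agreement. A second, dim probe of Cd6 gave 0.00, and Lat had no value on 1 knockout array and overlapped between the groups. Cd3d read 0.19, 0.90, 0.30 and 1.15 in wild type and -0.24, -0.12 and -0.43 in the knockout, so the wild-type arrays themselves formed a lower and a higher pair. The part of the number of T cells in these falls was not tested. Of 16 neutrophil markers only Fpr1 fell, by 0.60, with a median of -0.98 and summed levels of 16.1 to 52.8 against 31.6 to 203. Of 16 skeletal muscle markers 2 rose and none fell. The actin Acta1 rose by 1.78 and the calcium pump Atp2a1 by 0.77 on its brighter probe (0.26 and not called on the other). The list's summed level was 4.07 to 6.09 in the knockout and 3.05 to 3.71 in wild type, without overlap. Acta1 and Atp2a1 were dim, with mean wild-type levels of -2.97 and -2.2. The list's median change was 0.3, beside medians of 0.418 and 0.167 over the probes of the dimmest and the next brightness bin. Under saline at 8 h Acta1 changed by -1.13 and Atp2a1 by 0.69, neither of them called. Pygm, which muscle expresses strongly, rose along with Acta1 and Atp2a1 at 4 h. The parts of muscle tissue and of the shift with brightness in these rises were not tested. No B cell, NK cell, club cell, plasma cell, erythroid, adipocyte or nerve marker was called.

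The probe-agreeing genes were then followed into the other comparisons. Of the 92 rises, 83 lay above 0 under saline at 8 h (90.2%, against 33.7% of all genes), and 44 were called higher there (47.8%, against 5.21% of all genes). Of the 102 falls other than Klf15, all 102 lay below 0 there (100%, against 66.3% of all genes), and 36 were called lower (35.3%, against 8.12% of all genes). Under dexamethasone at 4 h the shares with the same sign were below the background: 45 of the rises lay above 0 (48.9%, against 59.5%) and 33 of the falls below 0 (32.4%, against 40.5%). There 3 rises were called higher (3.26%, against 0.28% of all genes) and 2 falls lower (1.96%, against 0.658%), the falls being Sfxn2 and Bckdhb. Under dexamethasone at 8 h, 56 rises lay above 0 (60.9%, against 55.9%) and 5 were called higher, beside 3.14% of all genes. There 36 falls lay below 0 (35.3%, against 44.1%) and 4 were called lower, beside 2.05% of all genes. The bright-to-dim ratio differed in the same way, by -0.16 under saline at 8 h and by 0 under dexamethasone at 4 h, and its part in this pattern was not tested.

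The difference between the comparisons was tested as well. Only Map3k13, a kinase of stress signalling with 1 probe, differed in its genotype effect between saline at 8 and 4 h (0.00651% of genes called), with a change of 0.39 at 4 h and -0.46 at 8 h. Between dexamethasone and saline at 4 h the genotype effect differed in 2148 genes (14%), 1611 higher (10.5%) and 537 lower (3.5%) under dexamethasone. Among the lowest adjusted p-values were those of Fah, the last enzyme of tyrosine breakdown, and of Zfp131, a zinc-finger protein. Fah changed by -0.19 under saline (adjusted p = 0.0758 in limma) and by -0.94 under dexamethasone, and Zfp131 by -0.52 and 0.12.

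Cbx2, a Polycomb protein, changed by 0.03 under saline and by -0.84 under dexamethasone on its brighter probe, its dim probe showing no called difference, and Csgalnact2, of chondroitin synthesis, by -0.47 and 0.23. Genes lowered under saline went both ways with the hormone. Cbs changed by -1.63 under saline and by -3.13 under dexamethasone, a difference of -1.50 (limma adjusted p = 0.00356). Kyat3 went from -1.15 to -1.92 and Sfxn2 from -1.01 to -1.65, with limma adjusted p-values for the difference of 0.00356 and 0.00913. Glud1 differed the other way, by 0.71, Acadvl by 0.58, and Cox4i1, Cox5b and Cox6a1 by 0.49, 0.54 and 0.49, all of them called. For Gnmt, Aass, Cth and Bckdhb the difference was not called, at 0.36 or less in size.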

How the data were processed

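Lung RNA was hybridised to 1-colour Agilent 4x44K arrays, of which 7 were compared and all 29 fitted. The deposited scanner files hold intensity values: per the file headers, Feature Extraction 10.7.3.1 (10.6 by the submitters' processing notes) had taken off the background and the spatial trend of each array. The authors' deposited value table is on a log2 scale, with a between-array method that no label or header names, and served as an alternative.

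Spots flagged as outliers were left out and the log2 processed signal was set relative to each array's 75th percentile. No spot was saturated, and 0.101% to 0.908% of spots per array were outliers. Spots of a probe were averaged, and probes were kept if 3 or more arrays of 1 group had them well above background (33936 of 41174). Names came through the unversioned accession and the RefSeq table of GRCm38.p6: 24844 probes matched 1 gene, 0 several and 16330 none. A gene was represented by its brightest kept probe. limma 3.58.1 in R 4.3.3 fitted 8 group means with Benjamini-Hochberg adjustment over all 15351 genes, or over all named probes for single probes. A probe counts as measured when either compared group meets this filter, and a bound on a fold is the bright group's mean over the higher of the dim probe's own signal and the lowest signal well above background on each dim array. Probes of a gene agree when at least 2 are measured and all are called with 1 sign. A list's summed level adds linear multiples of the 75th percentile over members without a missing value.

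Named genes were Klf15, Nr3c1, Aass, Prodh and Mt2, the 12 largest agreeing rises and falls without overlap, agreeing genes called in all 4 comparisons, the 4 largest single-probe changes each way, up to 4 members of each list and 6 neighbours of Klf15 by p, and 4 genes per interaction. Genes of the 49 and list members beyond this rule were chosen after their values were seen. The members and lists were chosen with earlier results of these data known. In simulated data with the spread of these arrays, 48% of genes changed by 0.5 and 75% of those changed by 1 log2 unit were called, and all measured probes were called in 22% and 64%. The simulated noise was independent between probes, without a shift by brightness or slide, so these shares need not hold for the real arrays. Precision is limited by how many arrays there are. Array correlations within a group were 0.9716 to 0.98467 in the knockout and 0.97269 to 0.99116 in wild type. Probes cannot separate near-identical family members (Nat8, Acot, Hspa1a, Mt2, Acat3, Il11ra1, Myh7). Some items are not reported here. Other normalizations, background correction, filters, slide blocks, weights, probe choices and left-out arrays were tried.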

Additional observations from a re-analysis of the deposited data

Results flagged for a closer look

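By the limma interaction at 4 h, 53 of 117 named genes differed in their genotype difference between dexamethasone and saline, beside 14% of all genes. Differences are given here as dexamethasone minus saline on the log2 scale. Most of these genes were chosen for their saline values and some by this interaction, so the choice partly sets the count and the signs. Neither is read as a result about the genes. For 6 genes that fell under saline the fall was larger with the hormone: Cbs by -1.50, Kyat3 -0.77, Sfxn2 -0.64, Ppara -0.45, Pxmp2 -0.44 and Gstz1 -0.39. Fah (-0.75) and Cbx2 (-0.87) were called lower with the hormone and not called under saline.

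Among genes that fell under saline, the difference was 0.58 for Acadvl, 0.55 for Aldoa, 0.55 for Appbp2, 0.50 for Bmper, 0.92 for Cd5, 1.02 for Cd6, 0.55 for Col18a1 and 0.98 for Cotl1. It was 0.49 for Cox4i1, 0.54 for Cox5b, 0.49 for Cox6a1, 0.70 for Csgalnact2, 0.61 for Dusp11, 0.71 for Glud1 and 0.42 for Il11ra1. Kansl1l differed by 0.46, Klf6 by 0.64, Lat by 1, Maff by 0.36 and Rell1 by 0.53. Mospd1 and Nr3c1, whose probes gave opposite directions under saline, differed by 0.35 and 0.45 on their brightest probes. Robo4 differed by 0.56, Slc39a4 by 0.52, Sun2 by 0.65, Supt5 by 0.54, Tnfaip3 by 0.56 and Zfp131 by 0.65.

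Among genes that rose under saline, the difference was -0.42 for Abca3, -0.83 for Acat3, -0.40 for Acsl5, -0.61 for Cdc45, -0.70 for Etv5, -0.56 for Icam1, -0.86 for Igfbp4 and -0.47 for Lss. It was -0.66 for Mcm2, -0.83 for Mindy4, -0.41 for Pecam1, -0.48 for Pkm, -0.86 for Pygm, -0.65 for Rfx5, -1 for Stxbp4 and -0.51 for Tek. Map3k13 differed by -0.48 between the treatments and by -0.85 between 8 and 4 h of saline. The bright-to-dim ratio of the arrays differed by genotype under saline and not under dexamethasone at 4 h (-0.35 and 0), and its part in these differences was not tested.

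In 7 of 117 genes examined, 1 of the 4 wild-type arrays stood apart from the others by Dixon's criterion, which chance meets in about 1 of 20 groups. The criterion is relative to the range of the 4 arrays, so that a small gap can meet it. The flagged arrays read -2.86 for Acat3, 2.71 for Acsl5, -2.14 for Adcyap1r1, 3.57 for Bckdha, 0.32 for Kyat3, 2.31 for Prodh and 2.38 for Zfp131. The gap was small for Bckdha, with 3.51 on the other arrays, and for Prodh, with 2.36.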

How the results depend on the processing

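The counts depended on the between-array method, while the genes called in all 4 comparisons did so less. Against 3594 called genes and 195 with agreeing probes, quantile normalization gave 2210 and 106, cyclic loess 2036 and 92, normexp on the median signal with quantile normalization 1675 and 76, the authors' deposited values 1546 and 69, and array weights 5896 and 487. Of the 195 genes, 71 agreed under quantile normalization too, 66 under cyclic loess and 117 under median scaling; 61 agreed under the first of these and under loess. Slide as a fixed block gave 44.2% of calls higher and the dimmest probe 48.7%, against 28.2%. With the bright-to-dim ratio as a covariate 19 genes were called, 2 with agreeing probes, 7 amino acid genes lower (14 in the authors' values, 22 here) and 17 genes in all 4 comparisons (49 here). The groups do not overlap in that covariate, so ratio and genotype cannot be fully told apart on these arrays. Asking only for 1 sign with the brightest probe called gave 744 agreeing genes. The ratio itself differed by -0.106 after quantile normalization and -0.097 after loess.

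Leaving out 1 array gave 1973 to 3701 called genes and 75 to 192 with agreeing probes, the lowest without knockout replicate 43, 16 to 24 amino acid genes lower, 43 to 48 genes in all 4 comparisons, and a ratio difference of -0.377 to -0.302. Without wild-type replicate 36 the first 2 counts were 2016 and 79. Cotl1 gave 0.04 and Hsf2 -0.41 under the covariate. The mean of the probes and the dimmest probe gave 1.73 and 3.73 for Mospd1 (no measured size, since its dim probe was above background on no wild-type array, while its bright probe gave -0.26), 0.70 and 0.47 for Virma, 0.55 and 1.68 for Ppp1r9a, and 0.29 and 0.84 for Nr3c1. Klf15, Sfxn2, Bckdhb, Aldh6a1, Gnmt, Cbs, Cth, Aass, Kyat3, Azgp1, Slc13a4, Lrtm2, Fgfbp1, Fbln2 and Mindy4 kept their direction and call under all alternatives run. No paired analysis was possible because the groups compared share no replicate numbers. The causes of these changes were not tested.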
